A study of Mus musculus with 6 samples.

Results

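RNA levels of 10 genes of the centrosome and of microtubule nucleation were compared in cultured mouse B cells treated with TAT-CRE and in mock-treated cells of the same mice. The genes are Cdk5rap2, Map7d3, Pcnt, Akap9, Tubg1, Tubgcp2, Tubgcp3, Cep192, Cep152 and Plk4. They were chosen by symbol, from an earlier reading of the same comparison in which Cdk5rap2 and Map7d3 were among the largest falls. All values of these 10 genes are therefore given as a description, with intervals but no p-values. Where a probe of these genes is said to be called or not called, this too is a description and not a test of the gene. Of the 10 genes, 9 had a probe in the array annotation used, with 19 probes among 45281 in all. Cep192 was not analysed here. A probe was kept for testing when it was above background on at least 3 of the 6 arrays, which left 13 of the 19 probes and 19240 of all probes.

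The TAT-CRE cells were follicular B cells from the spleen, a mature and recirculating kind, of C57BL/6 yy1 f/f mice, in which both copies of Yy1 carry sites cut by Cre recombinase. TAT-CRE is a Cre protein that enters cells, given here to delete Yy1, a transcription factor with zinc fingers and a known recognition motif. The mock cells were mock-treated cells of the same 3 spleens, so each group has 3 arrays and each mouse gives a pair. Both groups carried the floxed alleles, were selected with an antibody to CD23, and were grown for 72 hours with LPS, IL4, OPI and 20% FBS, which drives proliferation and class switching. Ages and sexes of the mice were not used here, and no TAT-CRE treatment of cells without floxed Yy1 was analysed, so loss of Yy1 and exposure to the protein cannot be told apart.

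Yy1 itself read 153, 140 and 134 on the deposited intensity scale in TAT-CRE cells of mice 1, 2 and 3, against 455, 409 and 439 in mock cells. Its probe was below background on every TAT-CRE array and above it on every mock array, which makes Yy1 at least 2.49-fold lower. Background was set on each array as the level under which 95% of 1504 probes for odorant and pheromone receptors (Olfr and Vmn genes) lay, and lay between 169.2 and 178.2. Such a bound sets the mock mean of log2 deposited intensities against, on each TAT-CRE array, the lowest intensity above background. Between 39.9% and 44.5% of probes were above background on an array. Arrays correlated across probes at 0.989 to 0.990 within TAT-CRE, 0.974 to 0.983 within mock and 0.964 to 0.975 across the groups. Precision is limited by having 3 arrays in each group.

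The centrosome organises microtubules in animal cells. Its centrioles are surrounded by pericentriolar material, a scaffold of large coiled-coil proteins that holds gamma-tubulin ring complexes, the templates from which microtubules grow. Centrioles are copied in each cell cycle under control of the kinase PLK4, and proliferating B cells build a spindle from the duplicated centrosomes at every division. CDK5RAP2 is a scaffold protein of the pericentriolar material that binds and activates gamma-tubulin ring complexes, and loss of its function in humans causes primary microcephaly.

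The promoter windows of Cdk5rap2 and Map7d3 are shown because these genes had the largest differences among the members and because the treatment targets a factor whose motif can be searched for. Each window runs from 250 bases before to 50 bases after an annotated transcript start, on the strand of the gene, in RefSeq annotation of build GRCm38.p6. That of Cdk5rap2 is chr4:70410386-70410685 and that of Map7d3 is chrX:56822276-56822575, both on the minus strand. Capitals mark matches of the YY1 motif AANATGGC.
Cdk5rap2: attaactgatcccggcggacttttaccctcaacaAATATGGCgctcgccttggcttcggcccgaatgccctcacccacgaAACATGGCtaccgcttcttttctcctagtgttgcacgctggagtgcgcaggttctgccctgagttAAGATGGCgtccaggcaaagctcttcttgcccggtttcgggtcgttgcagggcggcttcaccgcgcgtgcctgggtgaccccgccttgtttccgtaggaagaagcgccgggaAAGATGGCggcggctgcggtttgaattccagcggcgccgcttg
Map7d3: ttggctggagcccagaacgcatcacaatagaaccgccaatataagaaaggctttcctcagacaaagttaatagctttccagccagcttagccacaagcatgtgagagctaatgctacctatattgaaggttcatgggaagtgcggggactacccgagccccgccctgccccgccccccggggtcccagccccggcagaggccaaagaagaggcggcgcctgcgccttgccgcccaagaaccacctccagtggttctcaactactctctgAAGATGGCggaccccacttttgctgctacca

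Both strands were searched, the reverse complement being GCCATNTT. The Cdk5rap2 window held 4 matches, starting 216, 170 and 105 bases before the transcript start and at base 8 after it. The Map7d3 window held 1 match, starting at base 20 after the start. All 5 matches lay on the strand of the gene, and 3 of them read AAGATGGC. Of 32851 promoter windows of the same length, 1988 (6.05%) held at least 1 match, 107 (0.326%) at least 2, and 8 (0.0244%) at least 3. Only the Cdk5rap2 window held 4. These windows were counted whether or not the gene was tested here. Counted by gene among tested genes outside the 10, 9.72% of those not called held a match. That share was 9.02% of those called higher and 20.5% of those called lower. The core ATGGC, which lies inside AANATGGC, was found in 40.5% of windows, and in the Cdk5rap2 and Map7d3 windows only inside those matches. Promoter windows were at hand for 7 of the 10 genes. Those of Tubgcp3 and Plk4 held 1 match each, and those of Pcnt, Akap9 and Cep152 held none, as did that of Yy1 itself. A match is a string of letters, and binding was not measured.

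**Figure D1:**
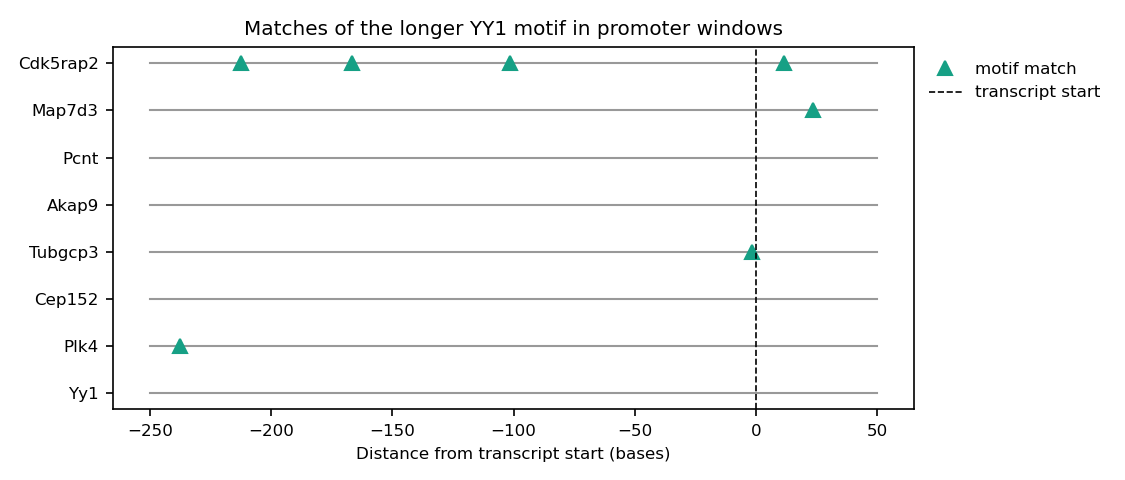
Matches of the longer YY1 motif (triangles) in the promoter windows of 7 member genes and Yy1, by distance in bases from the annotated transcript start (dashed line). Cdk5rap2 has 4 matches, Map7d3, Tubgcp3 and Plk4 have 1 each, and the other 4 windows have none.

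Most of the differences among the kept probes of these genes were towards lower values in TAT-CRE cells. Of 13 kept member probes, 11 had a negative log2 difference and 8 were lower with TAT-CRE in every mouse. Shares over all kept probes were not counted for these, but the median log2 difference of all kept probes was 0.005. Of the 13, 4 are probes of a single gene, Akap9. In 7 probes, of 5 genes, all TAT-CRE arrays lay below all mock arrays, an arrangement that 15.5% of all kept probes showed. In none did all TAT-CRE arrays lie above, against 16.4% of all kept probes. In the fit over all kept probes, 6 member probes, of 4 genes, were called lower and none higher (0 higher also at an unadjusted p under 0.05), against 7.14% called lower and 6.55% called higher of all kept probes. Since that comparison chose the members, nothing is read from these counts. They also include probes that were kept only because mock arrays were above background. The 6 probes not kept read between 115 and 182 on every array. Fewer cells that express a gene and less RNA per cell cannot be told apart in these bulk samples.

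**Figure D2:**
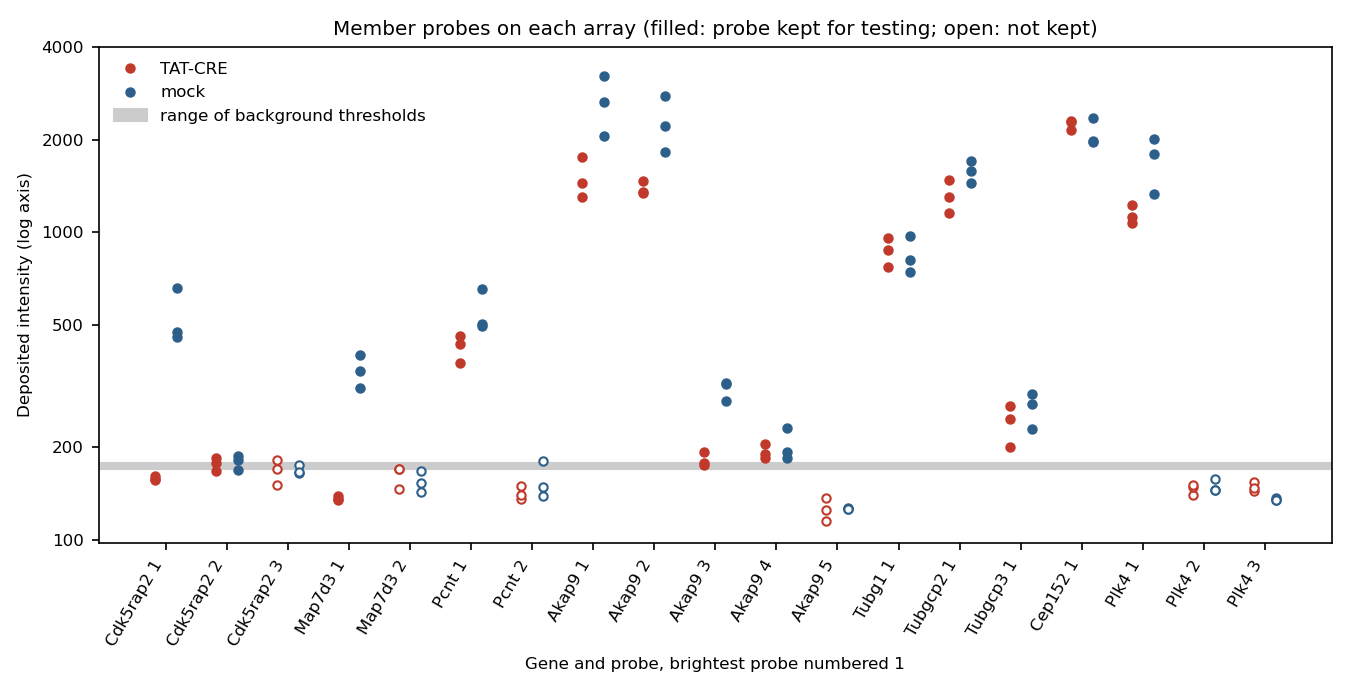
Deposited intensity (log axis) of all 19 member probes on each array, with TAT-CRE arrays (red) left of mock arrays (blue), filled where the probe was kept, and the range of background thresholds in grey. Probe 1 of Cdk5rap2 and of Map7d3 lies below the grey band on all TAT-CRE arrays and above it on all mock arrays.

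Cdk5rap2 was lower in TAT-CRE cells at its brightest probe, ILMN_2842859. The probe read 156, 157 and 161 in TAT-CRE cells of mice 1, 2 and 3, against 474, 657 and 455 in mock cells. It was below background on every TAT-CRE array and above it on every mock array, and the groups did not overlap. Means were 158 ± 2.82 in TAT-CRE and 528 ± 112 in mock cells (SD, n = 3 each). Cdk5rap2 was at least 3.0-fold lower against the lowest intensity above background. The fitted log2 difference was -2.71 ± 0.20 (SE, 95% confidence interval -3.12 to -2.30) after background correction, and -1.72 without it. The mice differed by -2.59, -3.13 and -2.40, mouse 2 having the highest mock value.

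The other Cdk5rap2 probes did not show this difference. The probe ILMN_1216515 read 178, 167 and 184 in TAT-CRE cells, against 187, 169 and 182 in mock cells, and was above background on 2 arrays of each group. Its log2 difference was -0.05 (95% confidence interval -0.43 to 0.33). The third probe read 150, 169 and 182 in TAT-CRE cells, against 175, 164 and 167 in mock cells, was above background on 1 array and was not kept. Both dimmer probes thus lay at the background level in both groups, where a further fall cannot be measured. All 3 are annotated to the same transcript record, and their places along the transcript were not used here, so the difference of Cdk5rap2 rests on 1 probe.

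Map7d3, of a family of proteins that bind along microtubules, was lower in the same way. Its probe ILMN_1242359 read 135, 134 and 139 in TAT-CRE cells of mice 1, 2 and 3, against 354, 312 and 398 in mock cells. All TAT-CRE arrays were below background and all mock arrays above it, with means of 136 ± 2.39 in TAT-CRE and 355 ± 43.0 in mock cells (SD, n = 3 each). Map7d3 was at least 2.03-fold lower. The fitted log2 difference was -2.59 ± 0.18 (SE, 95% confidence interval -2.97 to -2.20), and -1.38 without background correction. The mice differed by -2.62, -2.41 and -2.73. With every TAT-CRE array below background, these differences follow the order of the mock values. A second Map7d3 probe, annotated to another transcript record, was not above background on any array and read 170, 147 and 170 in TAT-CRE cells, against 153, 142 and 168 in mock cells.

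The other MAP7 family genes did not pass the test. Map7 differed by 0.31 and Map7d1 by 0.54 on the log2 scale (limma adjusted p = 0.321 and 0.0621), both higher in TAT-CRE cells, and Map7d2 by -0.01 (adjusted p = 0.988). For Map7d1 all TAT-CRE arrays lay above all mock arrays, and its adjusted p was 0.0478 without the mouse in the model.

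AKAP9 is a large scaffold of the Golgi and centrosome that anchors protein kinase A and gamma-tubulin complexes. Of its 5 probes 4 were kept, and 3 of these were lower in TAT-CRE cells, in each mouse and without overlap. The brightest, ILMN_2627299, read 1758, 1447 and 1304 in TAT-CRE cells, against 3214, 2047 and 2657 in mock cells. Its log2 difference was -0.84 ± 0.19 (SE, 95% confidence interval -1.24 to -0.44). The probe ILMN_2627300 read 1350, 1341 and 1471 in TAT-CRE cells, against 1820, 2221 and 2764 in mock cells, a log2 difference of -0.73 ± 0.19 (-1.12 to -0.33). The ordering of the mock arrays thus differed between these probes, with mouse 1 highest at the first and mouse 3 highest at the second.

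The third Akap9 probe, ILMN_2678495, was dimmer and read 177, 193 and 175 in TAT-CRE cells, against 322, 323 and 284 in mock cells. It was above background on 2 of 3 TAT-CRE arrays. Its log2 difference was -1.29 ± 0.18 (SE) with background correction and -0.77 without it. On the deposited scale, which keeps background, the 3 probes differed by -0.80, -0.69 and -0.77. With background correction they differed by -0.84, -0.73 and -1.29, so their likeness depends on the scale. The fourth kept probe read 184, 206 and 189 in TAT-CRE cells, against 193, 231 and 184 in mock cells, just above background, and differed by -0.12 (95% confidence interval -0.51 to 0.27). It is annotated to another record than the first 3. The fifth was not above background on any array. Without mouse 3, the probes ILMN_2627299 and ILMN_2627300 were no longer called, with log2 differences of -0.72 and -0.61. Both were also not called with no filter on dim probes.

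Pericentrin, encoded by Pcnt, is a scaffold that CDK5RAP2 and gamma-tubulin complexes join in the pericentriolar material. Its brighter probe read 433, 375 and 461 in TAT-CRE cells, against 496, 652 and 504 in mock cells, so the groups did not overlap. The log2 difference of -0.46 (95% confidence interval -0.89 to -0.04) rested mainly on mouse 2, which differed by -0.98 while mice 1 and 3 differed by -0.25 and -0.16. Without mouse 2 it was -0.20. The probe was not called. The second Pcnt probe was above background on 1 array only, that of mock cells of mouse 1.

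The intervals of the gamma-tubulin genes all spanned 0, though Tubgcp2 was lower in each mouse. Tubg1, which encodes gamma-tubulin, read 956, 773 and 878 in TAT-CRE cells, against 972, 815 and 740 in mock cells, a log2 difference of 0.05 (95% confidence interval -0.33 to 0.44). Tubgcp2 and Tubgcp3 encode the proteins that form the small complex with gamma-tubulin. Tubgcp2 read 1151, 1306 and 1478 in TAT-CRE cells, against 1449, 1578 and 1701 in mock cells. It was lower in each mouse, with differences of -0.36, -0.29 and -0.22, while the groups overlapped because the mice differed in level. The interval of the mean ran from -0.67 to 0.09. Its width borrows from the variance of all kept probes and does not measure the spread of these 3 differences alone. Tubgcp3 read 200, 247 and 272 in TAT-CRE cells, against 298, 229 and 275 in mock cells. Its difference of -0.26 (-0.72 to 0.19) came from mouse 1, at -0.94, and was 0.08 without that mouse. None of these 3 probes was called, and the intervals of Tubgcp2 and Tubgcp3 reach past the difference of Pcnt.

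Among the genes of centriole duplication, Plk4 was lower and Cep152 was not. PLK4 is the kinase that starts centriole assembly, and CEP152 is a scaffold that recruits it. The brightest Plk4 probe read 1227, 1122 and 1072 in TAT-CRE cells of mice 1, 2 and 3, against 1801, 1335 and 2005 in mock cells, with no overlap. The log2 difference was -0.61 ± 0.19 (SE, 95% confidence interval -1.02 to -0.20), with -0.59, -0.27 and -0.97 in the mice. It was called with the mouse in the model and not called without it, nor without mouse 1 or 3. It was also not called with no filter on dim probes, nor with background set at the 90th percentile of the receptor probes. The other 2 Plk4 probes, annotated to other transcript records, were not above background on any array. One of them read 144, 154 and 148 in TAT-CRE cells, against 137, 135 and 134 in mock cells, the opposite direction, with every array below background. Cep152 read 2294, 2289 and 2146 in TAT-CRE cells, against 1966, 1980 and 2354 in mock cells. Its log2 difference was 0.10 (-0.29 to 0.49), higher in mice 1 and 2 and lower in mouse 3.

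**Figure D3:**
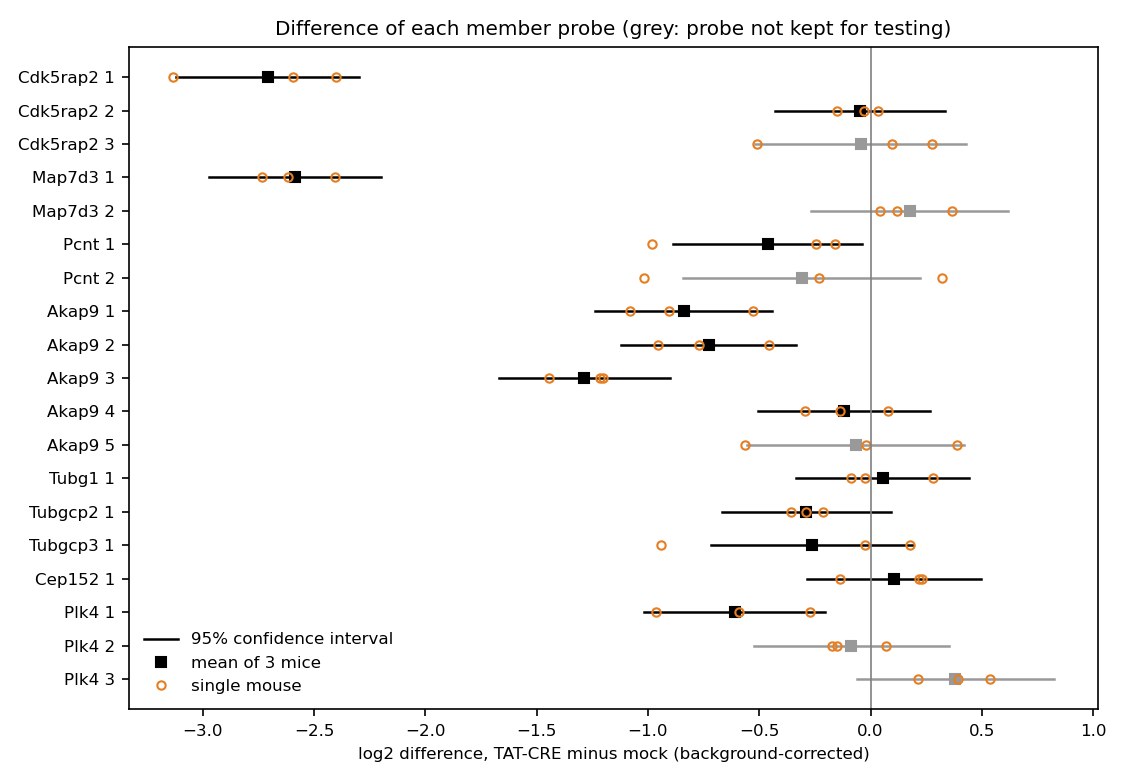
Log2 difference, TAT-CRE minus mock, of each of the 19 member probes after background correction, with the mean of 3 mice (squares), its 95% confidence interval (lines) and the single mice (circles), in grey where the probe was not kept. Probe 1 of Cdk5rap2 and of Map7d3 lies at -2.71 and -2.59, 3 Akap9 probes lie between -1.29 and -0.73, and the interval of Tubg1, Tubgcp2, Tubgcp3 and Cep152 spans 0.

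Genes of the same pathway outside the 10 were read from 8 lists. Of 116 genes tested, 4 fell and 6 rose in TAT-CRE cells (limma adjusted p under 0.05 over all kept probes), that is 3.45% and 5.17%. Over all 9942 genes tested, each by its brightest kept probe, 7.51% fell and 7.42% rose. The median log2 difference was 0.01 over the listed genes and 0.02 over all genes. At an unadjusted p under 0.05, 14 listed genes were lower and 15 higher.

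The remaining gamma-tubulin ring complex genes had no calls in limma among 7 tested (1 lower and 2 higher at an unadjusted p under 0.05), with a median log2 difference of 0.20. In the alternatives, 1 was called lower without background correction, with an offset of 50, with an intensity trend or without the mouse in the model. With background set at the 99th percentile of the receptor probes, 1 was also called lower. Without background correction, 1 was called higher. Nedd1, which brings the complex to the centrosome and spindle, differed by 0.48 and Tubgcp4 by 0.45 (adjusted p = 0.101 and 0.161), and the small subunit gene Mzt2 by -0.55 (adjusted p = 0.0573, and 0.0443 without the mouse in the model). None of 17 spindle pole genes was called in limma (1 lower and 0 higher at an unadjusted p under 0.05), among them Tpx2 at -0.02, Aurka at 0.21 and Plk1 at -0.03, with a median of 0.02. Without mouse 1, 1 spindle pole gene was called lower.

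Of 8 genes of augmin, the complex that places gamma-tubulin on existing spindle microtubules, 2 fell and none rose in limma, with a median of -0.21 (2 lower and 0 higher at an unadjusted p under 0.05). These 2 are 25% of a short list, against 7.51% of all genes. Haus7 read 248, 246 and 296 in TAT-CRE cells, against 426, 443 and 441 in mock cells, a log2 difference of -1.03 ± 0.19 (SE, limma adjusted p = 0.00135). Haus2 differed by -0.67 (adjusted p = 0.0299). It was above background on 1 TAT-CRE array. Its call was lost without mouse 1 (adjusted p = 0.237), without mouse 3 (0.0934) and without background correction (0.155). It was also lost without the mouse in the model (0.0557), with an offset of 50 and with no filter on dim probes. With background at the 99th percentile of the receptor probes, or with probes kept by their mean over arrays, it was not tested. Over the alternatives in which it was tested its adjusted p ran from 0.00388 to 0.237. Haus7 was called in every alternative, with adjusted p up to 0.0173.

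Of 19 pericentriolar and satellite genes outside the 10, 3 rose and none fell in limma, with a median of 0.01 (1 lower and 4 higher at an unadjusted p under 0.05). These 3 are 15.8% of the list, against 7.42% of all genes. Without mouse 2, 1 gene of the list was called lower. Sdccag8, a centrosomal protein gene mutated in human ciliopathies, read 362, 402 and 382 in TAT-CRE cells, against 237, 222 and 268 in mock cells, a log2 difference of 0.96 ± 0.19 (SE, limma adjusted p = 0.00247). Ofd1, needed for cilium assembly, rose by 0.88 (adjusted p = 0.00703) and Nin, which anchors microtubules at the mother centriole, by 0.82 (adjusted p = 0.00998). The other 2 kept Nin probes differed by 0.46 and 0.16 and did not pass. Of 23 centriole genes outside the 10, 2 rose and none fell in limma, with a median of 0.00 (3 lower and 3 higher at an unadjusted p under 0.05). These 2 are 8.7% of the list, near the 7.42% of all genes, and 1 centriole gene was called lower without mouse 2 and without background correction. Cenpj, which controls centriole length, rose by 0.70 (adjusted p = 0.0226) and the distal appendage gene Cep164 by 0.64 (adjusted p = 0.0287). Without mouse 1 the calls of Nin, Cenpj and Cep164 were lost (adjusted p = 0.096, 0.145 and 0.175), and that of Cep164 also without mouse 3 (adjusted p = 0.0759). Over all alternatives their adjusted p ran from 0.00112 to 0.096, from 0.0122 to 0.145 and from 0.0149 to 0.175. With no filter on dim probes, these genes and Ofd1 lost their calls.

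Pde4dip encodes a scaffold related in sequence to CDK5RAP2. It read 1434, 1420 and 1438 in TAT-CRE cells, against 2067, 1224 and 2002 in mock cells, so that mock cells of mouse 2 lay below all TAT-CRE arrays and the groups overlapped. Its log2 difference was -0.28 ± 0.20 (SE, limma adjusted p = 0.403), a value that did not pass.

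Among 15 other microtubule-associated genes, which include the MAP7 relatives, Mapre2 rose and none fell in limma, with a median of 0.31 (1 lower and 6 higher at an unadjusted p under 0.05). That is 6.67% of the list called higher, near the 7.42% of all genes. The count of higher calls was 5 without background correction, with an offset of 50 or with an intensity trend. It was 2 without mouse 3, without the mouse in the model, with background at the 99th percentile, or with probes kept by their mean over arrays. It was 0 without mouse 1 and with no filter on dim probes. Mapre2 encodes a protein that tracks growing microtubule ends, and differed by 0.76 ± 0.20 (SE, limma adjusted p = 0.018), with adjusted p from 0.00507 to 0.104 over the alternatives. Without mouse 1 its call was lost (adjusted p = 0.0861), as it was with no filter on dim probes. A second Mapre2 probe differed by 0.49 and did not pass (adjusted p = 0.0804).

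Of 12 tubulin and tubulin chaperone genes, 2 beta-tubulin genes fell and none rose in limma, with a median of -0.12 (3 lower and 0 higher at an unadjusted p under 0.05). These 2 are 16.7% of a short list, against 7.51% of all genes. Tubb2b read 1004, 1135 and 1064 in TAT-CRE cells, against 2377, 2586 and 2492 in mock cells, a log2 difference of -1.30 ± 0.18 (SE, limma adjusted p = 0.000141). Of its other 3 kept probes, those at -1.37 and -1.08 passed and that near background, at -0.00, did not. Tubb6 differed by -0.58 (adjusted p = 0.0443), with adjusted p from 0.02 to 0.276 over the alternatives. Its call was lost without mouse 2 (adjusted p = 0.109), without mouse 3 (0.276) and without the mouse in the model (0.0545). It was also lost with no filter on dim probes and with background set at the 90th percentile of the receptor probes. Beta-tubulin genes are close copies, so a probe may read more than 1 of them. The widely expressed Tubb5 and Tuba1b differed by -0.07 and -0.13 and did not pass.

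**Figure D4:**
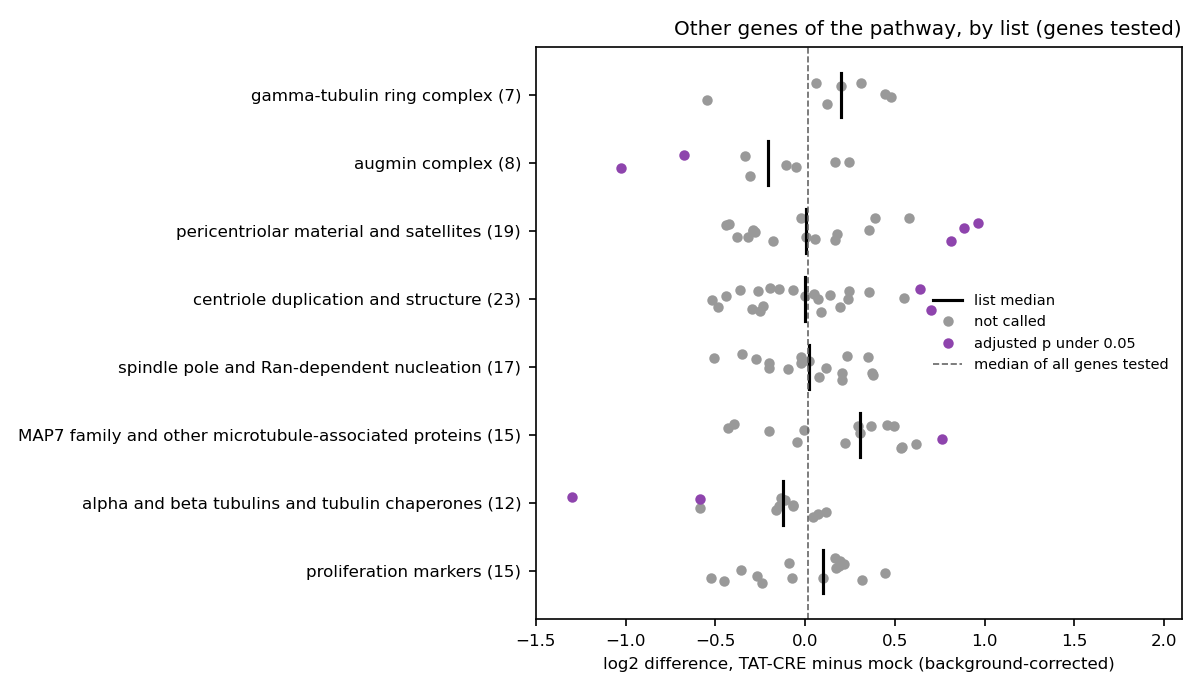
Log2 difference, TAT-CRE minus mock, of the other genes of the pathway tested, by list (number tested in brackets), each gene by its brightest kept probe, in purple where the adjusted p was under 0.05. List medians (black) lie between -0.21 and 0.31, and 10 genes are purple.

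Markers of proliferation were read because centriole and spindle genes vary with the cell cycle. None of 15 was called in limma (2 lower and 0 higher at an unadjusted p under 0.05), and their median log2 difference was 0.10. Mcm2, Ccne1 and Birc5 differed by -0.52, -0.45 and -0.36 (limma adjusted p = 0.0836, 0.11 and 0.237), with all TAT-CRE arrays below all mock arrays. The largest rise was that of Top2a, at 0.44 (adjusted p = 0.31). In the alternatives, 1 marker was called lower without background correction, with an offset of 50 or without mouse 1, and 1 higher without mouse 2. Their mean log2 level was 10.82 to 10.90 on TAT-CRE arrays and 10.75 to 10.96 on mock arrays, and the ranges overlap. Such ranges also overlapped for the centriole and spindle pole lists. They lay apart for the augmin and tubulin lists, which were lower on TAT-CRE arrays. For the ring complex, pericentriolar and microtubule-associated lists they also lay apart, with TAT-CRE arrays higher. These levels were not tested. All 7 B cell markers tested were above background on every array, including Fcer2a, which encodes CD23, with a mean log2 level of 12.97 to 13.05 on TAT-CRE arrays and 12.79 to 13.12 on mock arrays. Of the 7, Blnk, an adaptor of B cell receptor signalling, fell by 0.67 on the log2 scale (limma adjusted p = 0.0279) and Fcer2a differed by -0.25 (adjusted p = 0.415). Cd79b and Ms4a1 differed the other way, by 0.518 and 0.505 (limma adjusted p = 0.0737 and 0.088), with all TAT-CRE arrays above all mock arrays. At an unadjusted p under 0.05 in limma, 1 of the 7 was lower and 2 were higher. Of 5 T cell markers with a probe 4, and of 6 monocyte and macrophage markers 3, were not above background on any array. The markers tested in those lists were Cd4, Adgre1 and, for erythroid cells, Hba-a1, which differed by -0.04, 0.32 and 0.53 (limma adjusted p = 0.93, 0.339 and 0.113). Whether a shift in cell types takes part in the differences above was not tested.

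The kept probes of named genes whose log2 values ran closest to those of Cdk5rap2 over the 6 arrays were those of Pigu, Cyp51, Vps35l, Niban1 and Ppa2, with Pearson r between 0.997 and 0.999. Each was lower in TAT-CRE cells, with differences between -1.52 and -0.79. Those closest to Map7d3 were Ddx24, Pccb, Prkdc, Timd2 and Slc1a4 (r between 0.996 and 0.999), with differences between -2.24 and -0.37. The probes of Cdk5rap2 and Map7d3 correlated at 0.969, and no gene was in both sets. All these correlations are over 6 arrays that share the division into TAT-CRE and mock, and are given as a description.

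The sizes for probes near background depended on the background correction. For Cdk5rap2 and Map7d3 it changed the log2 difference the most, with -2.22 and -1.93 under an offset of 50 in place of 16. The confidence intervals given above hold for the offset of 16 and do not include this choice. The brightest Akap9 probe lay at -0.84 as reported, -0.82 with that offset and -0.80 without correction, and that of Plk4 at -0.61, -0.59 and -0.57.

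**Figure D5:**
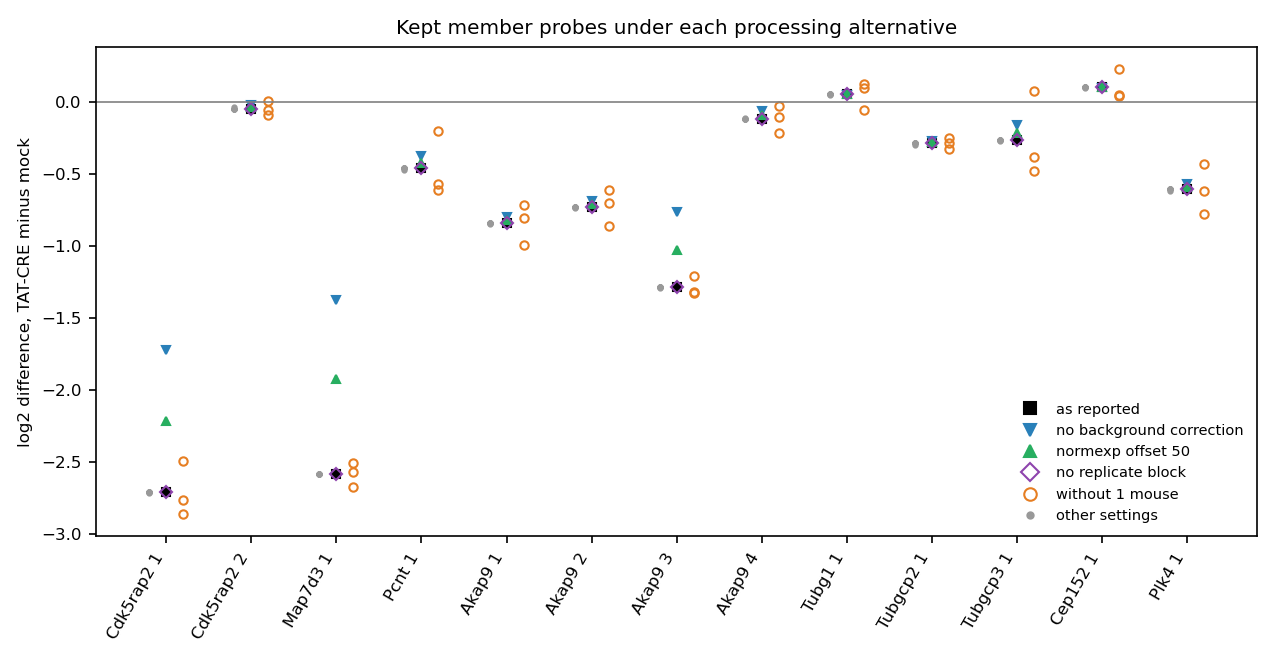
Log2 difference, TAT-CRE minus mock, of the 13 kept member probes as reported and under each processing alternative. Probe 1 of Cdk5rap2 and of Map7d3 and probe 3 of Akap9 move towards 0 without background correction, to -1.72, -1.38 and -0.77, and stay below 0 in every setting drawn.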

How the data were processed

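The authors measured total RNA, as biotin-labelled cRNA, on 6 Illumina arrays. Per the submitters' processing notes, GenomeStudio 1.8 was used. The deposited table holds a linear intensity for 45281 probes, and its sorted columns differ by at most 2.1, so these values were quantile normalized before deposit, without background subtraction (medians 161.4 to 161.5). A second table has 12 columns whose names match no sample, and it was not used.

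Intensities received normexp correction (offset 16), quantile normalization and log2. Differences were fitted over all 19240 kept probes with lmFit and eBayes in limma 3.58.1 (R 4.3.3), two-sided, with the mouse as a block and Benjamini-Hochberg adjustment, and called at an adjusted p of 0.05. Same-numbered arrays share a mouse per the labels, and their deviations from group means correlated at 0.119, 0.026 and 0.054. Of all probes, 34885 had 1 gene symbol, 18 several and 10378 none. A gene outside the members was read by its brightest kept probe.

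The members and lists were chosen with earlier results of these data known. Named list genes are those called, at most the 4 of smallest p in a list. Markers of B, T, myeloid and erythroid cells were read as a check. The likeness rule took the 5 highest correlations. The YY1 motif letters were set after the files were seen. Pde4dip, the MAP7 relatives and some other genes that did not pass were named by relation or role. Mzt2, Nedd1, Tubgcp4, Mcm2, Ccne1, Birc5, Cd79b and Ms4a1 had the smallest limma p of the uncalled genes in their lists. Top2a had the largest rise of the proliferation markers. These genes were named with their values known. Alternatives covered background, normalization, filter, block, variance model, probe choice and each mouse left out. The fit was tested on simulated data. Figures used matplotlib 3.10.9 in Python 3.11.15.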

Additional observations from a re-analysis of the deposited data

How the results depend on the processing

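As reported, 1374 probes were called lower and 1261 higher in TAT-CRE cells, with 6 member probes lower, and 4 lower and 6 higher genes of the pathway lists. With no filter on dim probes, which raises the number tested to 45281, the counts were 585 and 497 probes, 3 member probes, and 2 lower and 1 higher list genes. Higher list genes numbered 13 without background correction, 12 with an offset of 50 and 12 with an intensity trend, and lower list genes 7 with the mean of all kept probes of a gene. Leaving out 1 mouse at a time gave 848 to 1349 lower and 804 to 1248 higher probes, 3 to 6 lower member probes, and 3 to 5 lower and 2 to 9 higher list genes, the lowest probe and member counts coming without mouse 3 and the lowest count of higher list genes without mouse 1. Without the replicate block, 1231 probes were called lower and 1186 higher, 2321 probes were called with and without it, and 5 member probes were lower, Plk4 being the one lost. Of the listed genes, Haus2 and Tubb6 lost their calls without the block and Map7d1 and Mzt2 gained one, giving 3 lower and 7 higher. No called member or named list gene changed direction in any alternative run. With 1 array of a mouse left out, the block leaves nothing of the other, so mice were left out whole. Probes near background give bounds only.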

Other observations

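Promoter windows were searched for the motif AANATGGC in all tested genes other than the 10 described above. A match was found in 124 of 605 genes called lower in TAT-CRE cells (20.5%), against 55 of 610 called higher (9.02%) and 670 of 6895 not called (9.72%), counting genes with a window in the RefSeq table. These shares are a description of these windows, and their difference was not tested.

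The nearest genes with a kept probe on either side of Cdk5rap2 on the chromosome were Tlr4, a receptor for lipopolysaccharide, and Megf9. Tlr4 averaged 461 in TAT-CRE and 455 in mock cells, a log2 difference of 0.04 (limma adjusted p = 0.934), and Megf9 differed by -0.10 (limma adjusted p = 0.798), near background in both groups. Beside Map7d3 lay Mmgt1, which differed by -0.32 (limma adjusted p = 0.266), and Htatsf1, which differed by -0.54 (limma adjusted p = 0.0786) with all TAT-CRE arrays below all mock arrays. None of these neighbours passed the test.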
